A study of Mus musculus with 20 samples.

Results

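Arg1-high Mo-MF were the macrophages in the monocyte cultures with an abundant arginase 1 transcript. Their members were chosen by measured values. A cell of either Mo-MF library was taken when S100a8 and S100a9 summed to under 50 corrected counts, Csf3r was at 0, Csf1r was at 1 or more, Mki67 and Top2a summed to under 3, and Arg1 was at 10 or more. This gave 149 cells of the 10235 Mo-MF cells and of the 31683 cells of the single-cell experiment, 73 in Mo-MF 1 and 76 in Mo-MF 2. They were compared with 1243 and 1368 Arg1-low cells, which met the same criteria but held under 10 Arg1 counts. Because each cell was selected on its own transcripts, the differences between Arg1-high and Arg1-low Mo-MF are given as a description in both libraries, with no test.

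The study asked how macrophages that arise from bone marrow B cells (B-MF) differ from those that arise from monocytes (Mo-MF), and both were made from cells of young female mice. Both were cultured in medium conditioned by 4T1.2, a mouse breast cancer line (4T1.2-CM), and each was profiled in 2 libraries, so that Mo-MF and B-MF shared the tumor-conditioned medium and differed in the starting cell. Tumor-associated macrophages (TAM) were sorted from mice bearing 4T1.2 tumors and profiled in 4 libraries, named TAM 2 to TAM 5 after their columns. The mouse strain of the single-cell cultures is not given in the sources used here, the culture holds no other cells of a tumor, and nothing says whether the 2 libraries of a culture came from separate mice, so that p-values measure only the spread between these libraries.

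Arginase 1 splits arginine into ornithine and urea, and in macrophages it draws on the same arginine as nitric oxide synthase. It is known as a gene of alternatively activated and tumor macrophages, where signals such as IL-4, lactate and low oxygen can induce it, and arginine depletion by such cells can restrain T cells. In mouse, Arg1 lies on chromosome 10 (GRCm38, chr10:24915221-24927484, minus strand).

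The gate held few cells because of its Csf3r criterion. Csf3r, the G-CSF receptor, was at 0 in 3165 of the 10235 Mo-MF cells (30.9%), whereas 9244 passed the S100 criterion, 9930 the Csf1r criterion and 9664 the proliferation criterion. Without the Csf3r criterion there were 216 Arg1-high cells in Mo-MF 1 and 252 in Mo-MF 2. The median cell of the Arg1-high group held 19726 and 19548 corrected counts in the 2 libraries, against 19498 and 19403 in Arg1-low cells, and 4115 and 3925 detected genes against 3898 and 3846. Mitochondrial transcripts took a median of 4.46% and 4.57% of the counts in Arg1-high and 4.68% and 4.85% in Arg1-low cells. The 2 Mo-MF libraries shared 14 cell barcodes, and none belonged to an Arg1-high cell in both. Doublets were not called here.

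Arg1 was spread widely among its carriers. The median Arg1-high cell held 24 corrected Arg1 counts in Mo-MF 1 (10 to 199) and 22 in Mo-MF 2 (10 to 114), while 1037 of 1316 and 1143 of 1444 gated cells had none. Cells with 50 or more counts numbered 9 and 13. At the threshold itself, 26 and 30 cells with 7 to 9 Arg1 counts lay just outside and 8 and 14 cells with 10 to 12 counts just inside. Fn1 averaged 4.23 and 7.77 counts just outside against 6.75 and 6.07 just inside, so the 2 sides of the threshold overlapped in this gene. Ccl2 averaged 0.5 and 1.5 counts just outside against 8.5 and 5.0 just inside.

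Arg1-high cells made up 5.55% of gated cells in Mo-MF 1 (exact 95% interval 4.37 to 6.92) and 5.26% in Mo-MF 2 (4.17 to 6.54). The same gate found 4 Arg1-high cells in each B-MF library, 0.144% of 2772 (0.0393 to 0.369) and 0.127% of 3157 (0.0345 to 0.324). In TAM it found 112 of 939 cells in TAM 2, 23 of 260 in TAM 3, 39 of 413 in TAM 4 and 29 of 450 in TAM 5, which is 11.9%, 8.85%, 9.44% and 6.44%. Thus both Mo-MF shares lay above both B-MF shares. They also lay below the 4 TAM shares, but the interval of TAM 5 (4.36 to 9.12) spans both. Without the Csf3r criterion the share of TAM 5 was 5.01%, below the 5.39% and 5.60% of Mo-MF, and at 5 or more Arg1 counts TAM 5 had 36 of 450 cells against 122 of 1316 and 130 of 1444 in Mo-MF, again the smaller share. These intervals cover counting error only, and the in vitro and tumor tables were normalized separately, so that 10 counts need not mean the same level in TAM.

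**Figure D1:**
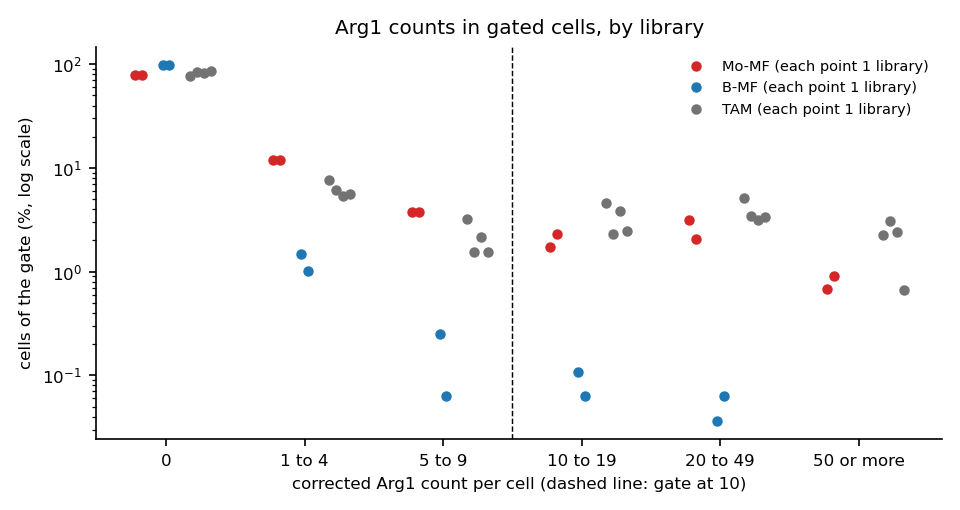
Share of gated cells (%, log scale) by corrected Arg1 count per cell, 1 point per library; a share of 0 is not drawn. To the right of the dashed line at 10 counts, the 2 Mo-MF libraries (5.55% and 5.26% in sum) lay above the B-MF libraries (0.144% and 0.127%), which had no cell with 50 or more counts.

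The Arg1-high cells carried the transcripts of macrophages. Cd68 averaged 41.5 and 42.1 corrected counts against 37.6 and 36.9 in Arg1-low cells, and Adgre1, which encodes F4/80, 5.84 and 6.67 against 5.11 and 5.01. The summed level of 13 macrophage markers was 443 and 407 in Arg1-high and 439 and 428 in Arg1-low cells, and none of the 13 passed 1.5-fold in both libraries. Several defining markers of other cells were absent. Cd79a, Pax5 and Ighm of B cells, Cd3d and Cd3g of T cells, Col1a1 and Pdgfra of fibroblasts and Ly6c2 of classical monocytes were at 0 in the Arg1-high cells of both libraries. Other genes of these marker lists were present, some at a higher and some at a lower level than in Arg1-low cells. Blnk, an adaptor of B-cell receptor signalling, averaged 1.62 and 1.66 against 1.16 and 1.11, Cd22 0.918 and 0.803 against 0.634 and 0.618, and Il7r, the interleukin-7 receptor chain, 8.05 and 7.72 against 5.44 and 5.70, while Cd79b, a B-cell receptor chain, averaged 0.123 and 0.0789 against 0.134 and 0.136. The summed B-cell marker level was 2.67 and 2.54 against 1.94 and 1.88, with 6 of 10 markers at 0 in both libraries, and its part in the differences was not tested.

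The other fixed markers of these cells, Pdpn, Fn1, Itgax, Mfge8 and Bex1, were higher in Arg1-high than in Arg1-low cells in both libraries. Of these 5, only Fn1 passed 1.5-fold in both libraries. Pdpn, Itgax, Mfge8 and Bex1 passed it in Mo-MF 1 but fell short in Mo-MF 2. Podoplanin (Pdpn), a membrane glycoprotein, averaged 2.99 corrected counts in Arg1-high against 1.94 in Arg1-low cells of Mo-MF 1 and 2.93 against 1.94 in Mo-MF 2. Mfge8, a secreted bridge between dead cells and phagocytes, averaged 16.5 against 8.06 and 13.3 against 9.45. Itgax, which encodes CD11c, averaged 1.77 against 1.03 and 1.43 against 0.945, and Bex1 6.71 against 4.33 and 5.76 against 4.13. These markers did not define every cell, since Bex1 was detected in 35.6% and 35.5% of Arg1-high cells and in 27.4% and 29.9% of Arg1-low cells. Nor were they all highest above the threshold. Bex1 averaged 8.53 and 8.62 in cells with 1 to 4 Arg1 counts, more than in Arg1-high cells. In Mo-MF 2 only, so did Mfge8 at 1 to 4 counts (19.3) and Itgax at 5 to 9 counts (2.17).

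Over 8632 genes with a mean of at least 0.1, 38 genes, Arg1 among them, were at least 1.5-fold higher in Arg1-high cells in both libraries (0.44% of the genes) and 36 were at least 1.5-fold lower (0.417%). All fold differences are on the log2 scale of mean corrected count plus 0.1, which understates changes of low genes. The 38 genes were 27.9% of the 136 that passed the fold upward in Mo-MF 1 and 33.6% of the 113 in Mo-MF 2, and the 36 were 31.0% of 116 and 16.9% of 213. Most genes past the fold in 1 library were therefore not past it in the other. Of the 37 genes other than Arg1, 3 averaged under 0.1 in Arg1-low cells, and of the 36 lower genes 12 did so in Arg1-high cells, so that these entered through 1 group alone.

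The higher genes included secreted and matrix proteins. Fibronectin (Fn1), a glycoprotein of the extracellular matrix, averaged 9.14 corrected counts in Arg1-high against 2.13 in Arg1-low cells of Mo-MF 1 and 6.09 against 2.89 in Mo-MF 2, and was detected in 52.1% and 52.6% of Arg1-high cells against 30.3% and 30.8%. The elastase Mmp12 averaged 63.6 against 27.0 and 51.8 against 28.7. The gelatinase Mmp9 averaged 1.25 against 0.341 and 1.24 against 0.332, yet was seen in only 21.9% and 40.8% of Arg1-high cells. Coagulation factor X (F10) averaged 2.85 against 1.12 in Mo-MF 1 and 1.43 against 1.06 in Mo-MF 2, past 1.5-fold in the first library and not in the second. Of 19 measured genes of matrix proteases, coagulation and fibrinolysis, 2 passed 1.5-fold upward and none downward, beside 0.44% and 0.417% of all genes. By any amount 16 were higher and none lower in both libraries (28.9% of all genes outside the gate were higher in both, and 29.8% lower). The median log2 difference was 0.38, beside -0.0099 over all genes. The summed level of the list was 125 and 114 in Arg1-high against 74.7 and 76.3 in Arg1-low cells. Mmp12 alone made up 63.6 and 51.8 of these sums in Arg1-high and 27.0 and 28.7 in Arg1-low cells.

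Genes of the response to low oxygen and of glycolysis had 4 of 26 measured members past 1.5-fold upward in both libraries (Ankrd37, Slc2a1, Hilpda and Ndrg1) and none downward, beside 0.44% and 0.417% of all genes. Ankrd37, a target of hypoxia-inducible factors, had the largest upward difference after Arg1 in the mean of the 2 libraries, although Fn1 and Epas1 were above it in Mo-MF 1. It averaged 0.904 corrected counts in Arg1-high against 0.166 in Arg1-low cells of Mo-MF 1 and 1.07 against 0.173 in Mo-MF 2. The glucose transporter gene Slc2a1 averaged 0.795 against 0.344 and 0.789 against 0.357. Hilpda, an inhibitor of lipolysis on lipid droplets, averaged 4.10 against 2.28 and 4.96 against 2.31, and Ndrg1 4.41 against 2.67 and 4.99 against 2.46. Epas1, which encodes the hypoxia-inducible factor HIF-2α and was not on the list, averaged 1.82 against 0.385 and 1.82 against 0.440 and was detected in 68.5% and 72.4% of Arg1-high but 20.6% and 22.7% of Arg1-low cells. None of the glycolytic enzymes passed 1.5-fold in both libraries. Aldoa averaged 22.8 against 17.0 and 24.4 against 16.7, Pkm 14.6 against 11.4 and 15.6 against 11.5, and Ldha 11.9 against 9.65 and 12.4 against 9.76, while Gapdh was at 21.4 against 19.7 and 21.1 against 19.2 and Pgk1 at 6.03 against 6.08 and 6.24 against 6.47. Over the list, 20 of 26 genes were higher in both libraries (beside 28.9% of all genes), 2 were lower in both (beside 29.8%), and the median log2 difference was 0.23.

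**Figure D2:**
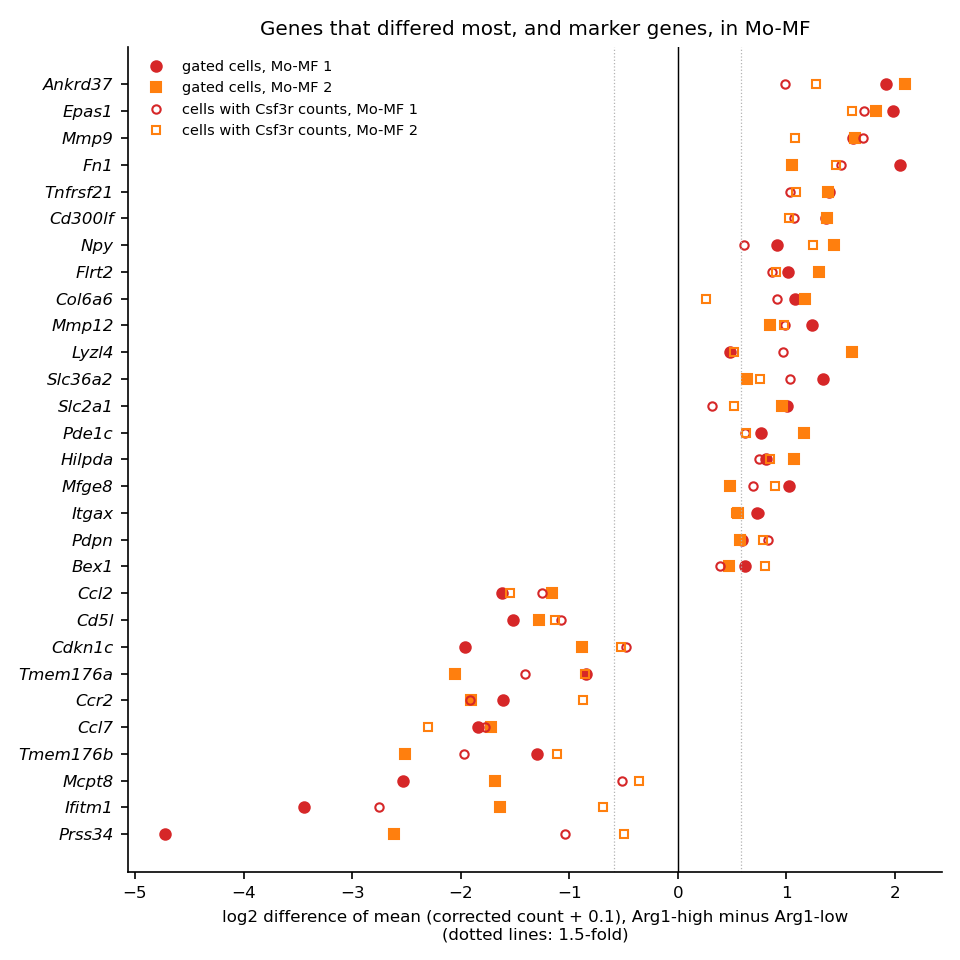
Log2 difference of mean corrected count plus 0.1 between Arg1-high and Arg1-low Mo-MF for the 15 highest and 10 lowest genes and the markers, Arg1 left out; filled symbols are gated cells and open symbols the cells with Csf3r counts, by library. Ankrd37 and Epas1 lay near 2 in both libraries of gated cells, and each gene drawn kept its side of 0 in all 4 sets.

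Promoters are shown for 3 of the hypoxia response genes past the fold. Ndrg1, which also passed it, had no entry among the promoters used. The 3 windows hold the core of the hypoxia response element, ACGTG or GCGTG. The sequences are from RefSeq (GRCm38.p6), around the first transcript start listed for each gene, 5′ to 3′ on the gene's strand, with ACGTG and GCGTG and their reverse complements CACGT and CACGC in capitals. They lie at chr8:45999801-46000100 (minus strand), chr4:119108495-119108794 (plus strand) and chr6:29272238-29272537 (plus strand). GENCODE places the Ankrd37 gene at chr8:45996902-46005707, so the window shown for it lies inside that gene model and not at its outer end.
Ankrd37: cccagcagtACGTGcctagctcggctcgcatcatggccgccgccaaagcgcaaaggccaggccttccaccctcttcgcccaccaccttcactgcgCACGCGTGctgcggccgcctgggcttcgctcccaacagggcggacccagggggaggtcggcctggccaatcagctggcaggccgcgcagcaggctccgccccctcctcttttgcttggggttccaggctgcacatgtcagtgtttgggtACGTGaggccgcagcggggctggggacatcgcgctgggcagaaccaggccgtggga
Slc2a1: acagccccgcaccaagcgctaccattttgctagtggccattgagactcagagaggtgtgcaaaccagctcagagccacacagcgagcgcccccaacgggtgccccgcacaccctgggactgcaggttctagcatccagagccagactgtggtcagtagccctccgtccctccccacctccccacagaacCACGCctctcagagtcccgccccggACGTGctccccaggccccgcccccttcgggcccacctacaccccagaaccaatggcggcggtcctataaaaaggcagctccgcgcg
Hilpda: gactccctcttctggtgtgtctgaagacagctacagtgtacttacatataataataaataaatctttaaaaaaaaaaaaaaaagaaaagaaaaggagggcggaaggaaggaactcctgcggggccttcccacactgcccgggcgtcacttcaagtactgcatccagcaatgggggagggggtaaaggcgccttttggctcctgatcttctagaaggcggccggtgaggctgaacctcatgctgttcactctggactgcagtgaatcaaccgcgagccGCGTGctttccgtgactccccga
Ankrd37 held 2 matches to ACGTG and 2 overlapping ones to GCGTG, Slc2a1 1 of each, and Hilpda 1 to GCGTG. Of the 38 higher genes, 29 matched a promoter in the table, and 19 of those (65.5%) held either core on either strand, against 43.8% of all 27025 promoters and 8 of 27 (29.6%) for the lower genes. ACGTG alone stood in 8 (27.6%, against 19.7% of all) and GCGTG in 16 (55.2% against 32.5%). Only ACGTG was planned as the hypoxia core, and the 27025 promoters include those of genes not measured in these cells. The palindromic E-box contains the letters ACGTG, so matches to them also count E-boxes. The AP-1 motif TGANTCA stood in 3 of 29 (10.3%, against 7.93% of all), the C/EBP motif TTNNGNAA in 10 (34.5% against 40.7%) and the ETS core AGGAAG in 15 (51.7% against 35.1%). Among the lower genes these 3 motifs stood in 3.70%, 48.1% and 48.1%. A match is a letter string and shows no binding.

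Several surface and signalling genes were also higher. Tnfrsf21, a death receptor of the TNF receptor family, averaged 3.01 against 1.09 corrected counts in Mo-MF 1 and 3.43 against 1.25 in Mo-MF 2. Cd300lf, a receptor for lipids on dying cells, averaged 2.36 against 0.855 and 2.30 against 0.827. Flrt2, a membrane protein of cell adhesion, averaged 1.68 against 0.784 and 1.88 against 0.707. The neuropeptide gene Npy averaged 6.42 against 3.36 and 8.88 against 3.22. Some genes with few counts were higher in Arg1-high cells as well. Col6a6, a collagen VI chain, averaged 0.233 against 0.0579 and 0.224 against 0.0439. The amino-acid transporter Slc36a2 averaged 0.370 against 0.0861 and 0.263 against 0.134, and the phosphodiesterase Pde1c 0.219 against 0.0877 and 0.303 against 0.0797. Col6a6 and Pde1c were under 0.1 in Arg1-low cells of both libraries, so they passed the minimum mean through Arg1-high cells alone. Lyzl4 was higher by 1.61 on the log2 scale in Mo-MF 2, past 1.5-fold, but by only 0.48 in the other library, short of it.

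Of 23 lipid-associated macrophage genes, 1 (Lpl) passed 1.5-fold upward and none downward, beside 0.44% and 0.417% of all genes. Lipoprotein lipase (Lpl) averaged 23.1 against 14.3 and 23.3 against 14.3 corrected counts. Gpnmb averaged 113 against 67.4 and 88.5 against 64.0, and osteopontin (Spp1) 136 against 110 and 168 against 109. The median log2 difference of the list was 0.18, with 17 genes higher in both libraries (beside 28.9% of all genes) and 5 lower in both (beside 29.8%).

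The lower genes included chemokines. Ccl7 averaged 1.96 corrected counts in Arg1-high against 7.28 in Arg1-low cells of Mo-MF 1 and 2.05 against 6.98 in Mo-MF 2, and Ccl2 2.95 against 9.28 and 3.75 against 8.51. Both attract monocytes through CCR2. Ccl7 was detected in 27.4% and 42.1% of Arg1-high against 44.0% and 42.9% of Arg1-low cells. For Ccl2 these shares were 38.4% and 43.4% against 53.3% and 53.7%. The highest cell held 27 and 26 Ccl7 counts among Arg1-high and 363 and 316 among Arg1-low cells. Ccl3 averaged 1.92 against 2.95 and 1.58 against 2.82. Of 15 measured inflammatory cytokines and chemokines, these 3 passed 1.5-fold downward and none upward, beside 0.417% and 0.44% of all genes, and the median log2 difference was -0.23. The chemokine gene Pf4, which is not on that list and is named after its values were seen, went the other way, at 68.6 against 41.0 and 68.5 against 33.5. Ccl4 was lower in both libraries but past the fold only in Mo-MF 2 (5.37 against 6.70 and 3.36 against 7.25).

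Genes of monocytes were split. Ccr2, the receptor for Ccl2 and Ccl7, averaged 0.0685 against 0.414 and 0.0395 against 0.421, Ms4a4c 0.342 against 0.789 and 0.145 against 0.710, and Plac8 0.452 against 0.825 and 0.421 against 0.746. These 3 of 7 measured monocyte markers passed 1.5-fold downward and 1, Fn1, upward, beside 0.417% and 0.44% of all genes. By any amount 4 were lower and 3 higher in both libraries, with a median log2 difference of -0.11. Fn1 also raised the summed monocyte marker level to 12.8 and 9.80 in Arg1-high against 7.40 and 7.93 in Arg1-low cells. The membrane protein gene Tmem176b averaged 0.137 against 0.481 in Mo-MF 1 and 0 against 0.471 in Mo-MF 2, and its neighbour Tmem176a 0.110 against 0.276 and 0.0132 against 0.371. Cd5l, a secreted scavenger protein of tissue macrophages, averaged 0.110 against 0.501 and 0.132 against 0.463. The interferon-inducible membrane protein gene Ifitm1 averaged 0.151 against 2.62 and 0.526 against 1.85, and the cell-cycle inhibitor gene Cdkn1c 0.0822 against 0.610 and 0.197 against 0.447. Ifitm1 was detected in 6.85% and 13.2% of Arg1-high against 16.2% and 17.5% of Arg1-low cells. For Cdkn1c these shares were 5.48% and 7.89% against 8.93% and 8.92%, and for Plac8 26.0% and 23.7% against 24.1% and 27.1%. Single Arg1-low cells held up to 334 and 357 Ifitm1 counts and 128 and 100 Cdkn1c counts.

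Prss34, the gene with the most negative difference, and Mcpt8 encode proteases of basophils, and their counts lay in few cells. Prss34 averaged 2.54 and 0.593 corrected counts in Arg1-low cells, but only 0.805% and 0.365% of those cells had a count, and the highest held 1058 and 689. Only 6 and 3 Arg1-low cells held 2 or more counts over Mcpt8, Prss34 and Cpa3. No Arg1-high cell did, which over 73 and 76 cells allows a share of up to 4.11% and 3.95%. Without these cells 39 genes were at least 1.5-fold higher and 34 lower.

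Most other pathways differed little. Among 13 genes of arginine and polyamine metabolism other than Arg1, none passed 1.5-fold in both libraries, and the median log2 difference was 0.021. The second arginase gene, Arg2, averaged 1.51 against 1.17 and 1.84 against 1.25 corrected counts, the arginine transporter Slc7a2 0.219 against 0.191 and 0.250 against 0.142, and creatine-forming Gatm 0.890 against 1.69 and 1.28 against 1.64. Nos2, the inducible nitric oxide synthase, was at 0 in Arg1-high cells of both libraries and was not among the genes above the minimum mean. Of 7 measured genes of alternative activation none passed the fold, with the mannose receptor Mrc1 at 7.07 and 7.46 in Arg1-high cells, and Retnla and Chil3 were detected at no more than 0.0137 in them.

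Of the interferon response genes, 12 of 22 were lower in both libraries by any amount (beside 29.8% of all genes), none higher in both (beside 28.9%) and none past 1.5-fold, and the median log2 difference was -0.099. The NRF2 antioxidant response (16 genes), sterol synthesis (20), the amino-acid stress response (12) and early response genes (16) had medians of 0.067, 0.087, 0.060 and 0.068, also with none past the fold in both libraries. By any amount 9, 8, 5 and 7 of them, in that order, were higher in both libraries, beside 28.9% of all genes. Lower in both were 1, 2, 2 and 5, beside 29.8%. Of 7 measured proliferation genes beyond those used by the gate, 5 were lower in both libraries (beside 29.8% of all genes), with none past the fold. Among 17 measured genes of dead-cell uptake, Cd300lf passed 1.5-fold upward, beside 0.44% of all genes. Axl, a receptor for bridging proteins, passed it downward (0.178 against 0.336 and 0.145 against 0.347), beside 0.417%.

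Of 9 measured genes of MHC class II presentation 2 were higher and 1 lower in both libraries, beside 28.9% and 29.8% of all genes. H2-Aa, H2-Ab1, H2-Eb1 and Cd74 were higher in Mo-MF 1 and lower in Mo-MF 2. H2-Aa averaged 1.18 against 0.597 corrected counts in Mo-MF 1 and 0.105 against 0.685 in Mo-MF 2, and Cd74 3.63 against 1.98 and 0.395 against 1.82. In Mo-MF 1, 4 of the 73 Arg1-high cells had 50 or more counts over H2-Aa, H2-Ab1, H2-Eb1 and Cd74 and held 87.0% of these transcripts, and no cell of the 76 in Mo-MF 2 did. The median Arg1-high cell had none of these transcripts in either library.

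The differences reached below the threshold. Epas1 averaged 0.279 and 0.321 corrected counts in cells without Arg1, 0.828 and 0.953 at 1 to 4 Arg1 counts, 1.22 and 1.33 at 5 to 9, and 1.70 in both libraries at 10 to 19. Tnfrsf21 averaged 0.959 and 1.07 at 0, 2.33 and 2.81 at 5 to 9, and 7.56 and 3.62 at 50 or more. Ankrd37 averaged 0.141 and 0.152 at 0, 0.242 and 0.310 at 1 to 4 counts, 0.449 and 0.185 at 5 to 9, and 0.878 and 0.967 at 20 to 49. Ccl2 averaged 10.1 and 9.25 in cells without Arg1, 1.02 and 1.56 at 5 to 9 counts, and 7.78 and 5.62 in the 9 and 13 cells with 50 or more. The level of Ccl2 was thus lowest at intermediate Arg1 counts, and the last of these averages rests on few cells.

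**Figure D3:**
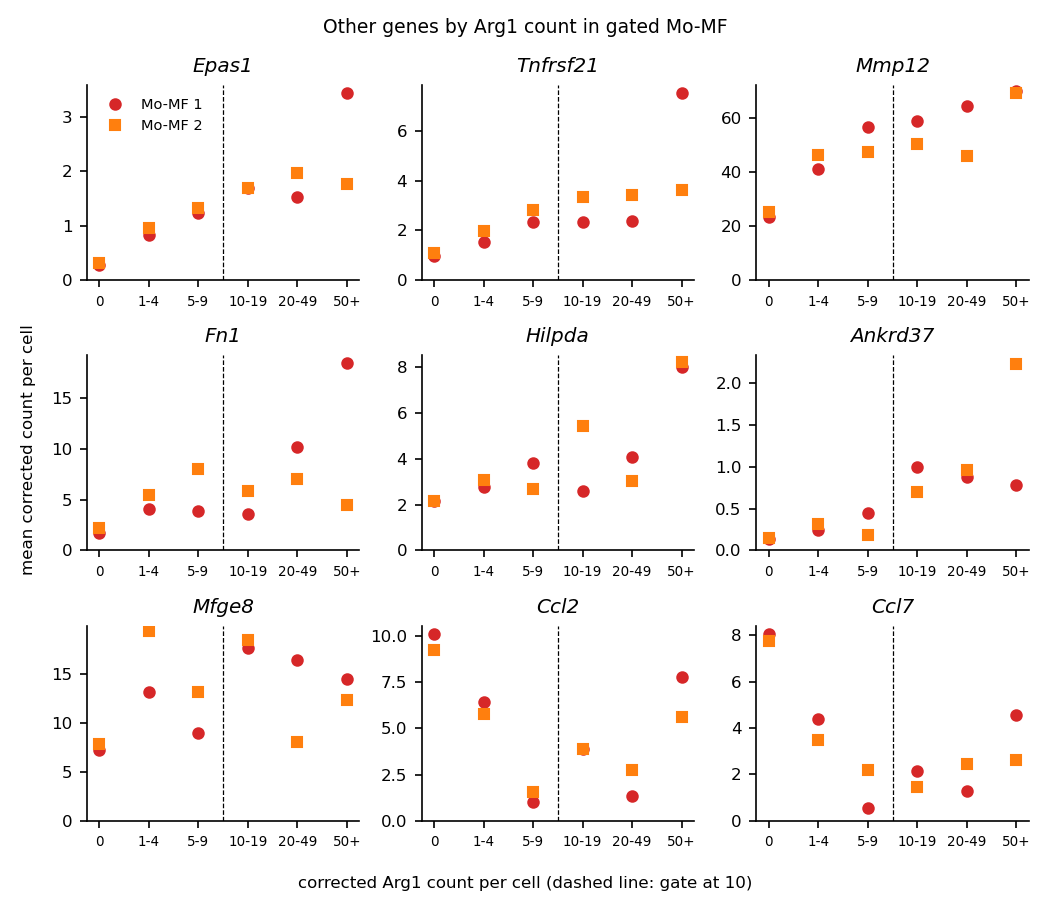
Mean corrected count per cell of 9 genes in gated Mo-MF by Arg1 count, 1 point per library and interval of Arg1. Epas1 was lowest in cells without Arg1 in both libraries (0.279 and 0.321), while Ccl2 and Ccl7 were highest there (Ccl2 10.1 and 9.25).

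Across gated cells, the genes most like Arg1 by Spearman rank correlation, averaged over the 2 libraries of 1316 and 1444 cells, were Epas1 (rho = 0.37), Mmp12 (0.26), the ubiquitin ligase gene Rnf128 (0.26), Tnfrsf21 (0.25), glutathione peroxidase 1 (Gpx1, 0.24), cathepsin L (Ctsl, 0.24), Flrt2 (0.24), the proton pump gene Atp6v0d2 (0.22), Gpnmb (0.22) and Timp2 (0.21). The cells share libraries and a gate, and apart from Epas1 the correlations were weak.

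The cells that the Csf3r criterion left out gave a view of the same genes in other cells of the same cultures. This set was chosen after seeing the data, and it adds no library, so its counts are no independent support. In cells with 1 or more Csf3r counts, 143 in Mo-MF 1 and 176 in Mo-MF 2 met the other criteria with Arg1 at 10 or more. Of the 37 genes other than Arg1 higher in the gate, 36 were higher in these cells in both libraries (beside 30.7% of all genes), with a median log2 difference of 0.65 beside 0.89 in the gate. Of the 36 lower genes, 34 were lower in both libraries (beside 30.1%), with a median of -0.76 beside -0.96. Epas1 differed by 1.66 on the log2 scale, Fn1 by 1.48, Pdpn by 0.81 and Ccl7 by -2.04. The hypoxia response genes past the fold in the gate differed less in these cells. Ankrd37 differed by 1.13 beside 2.01 in the gate, and Slc2a1 by 0.42 beside 0.99, short of 1.5-fold in both libraries. Hilpda differed by 0.80 beside 0.94 and Ndrg1 by 0.66 beside 0.85.

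The comparison with B-MF asked how the Arg1-high cells stand against macrophages of the other origin. The 149 cells were set per library against 2772 and 3157 B-MF cells passing the same gate with no Arg1 criterion. Of 8555 genes, 481 (5.62%) were higher and 457 (5.34%) lower in Arg1-high Mo-MF at an adjusted p under 0.05 (limma, 2 libraries against 2). With cells scaled to 10000 counts the calls were 521 higher and 792 lower, so that higher genes were 39.7% of the calls in place of 51.3%. The counts depended on which library was left out, with 173 higher and 112 lower without B-MF 1, 127 and 137 without B-MF 2, 1496 and 2118 without Mo-MF 1 and 1877 and 1658 without Mo-MF 2. A group left with 1 library is assumed to vary like the other. Arg1 is not tested here, because it chose the cells.

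The markers of the cells were higher than in B-MF by more than the spread between libraries. They were chosen with earlier results of these data known, so their p-values are no independent support. Fn1 averaged 0.358 and 0.439 corrected counts in the B-MF libraries, below the 2.13 and 2.89 of Arg1-low Mo-MF and the 9.14 and 6.09 of Arg1-high Mo-MF, a log2 difference of 3.93 ± 0.20 (SE, adjusted p = 0.000224 by limma). Pdpn averaged 0.273 and 0.247 in B-MF (log2 difference 3.09 ± 0.11, adjusted p = 9.96e-05 by limma), and Bex1 0.518 and 0.517 (3.36 ± 0.12, adjusted p = 9.96e-05 by limma). For these 3 genes the Arg1-low Mo-MF also lay above both B-MF libraries. Epas1 stood apart, since its 0.385 and 0.440 in Arg1-low Mo-MF were below the 0.557 and 0.477 of B-MF while Arg1-high Mo-MF had 1.82 in both (log2 difference 1.64 ± 0.12). It was also the gene most like Arg1 across gated Mo-MF cells, and the Arg1 criterion was applied to Mo-MF only. The Epas1 difference is therefore given with no p. F10 averaged 0.0862 and 0.0887 in B-MF, under 0.1, so that it passed the filter through Mo-MF alone, and is given with no test.

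Of the 37 genes higher than in Arg1-low Mo-MF, 29 were also higher than in B-MF and 1 lower, beside 5.62% and 5.34% of all genes. The lower one was Pf4, with 147 and 144 corrected counts in B-MF (log2 difference -1.08, adjusted p = 0.00207 by limma). Of the 37, 5 averaged under 0.1 in B-MF, and among the other 32 the count was 25. In 22 of the 29 the Arg1-low Mo-MF too exceeded both B-MF libraries, and in 7 they did not. Of the 36 lower genes, 28 were measured against B-MF, with 19 lower and 2 higher. Of the 28, 4 averaged under 0.1 in Arg1-high Mo-MF, and among the other 24 the count lower was 15. These 2 comparisons share the Arg1-high libraries, so the counts are set side by side only. Ccl2 and Ccl7 were lower in Arg1-high Mo-MF than in B-MF, with 10.0 and 9.15 and with 6.45 and 6.02 corrected counts in B-MF (log2 differences -1.50 ± 0.15 and -1.59 ± 0.11). In Arg1-low Mo-MF, Ccl2 averaged 9.28 and 8.51, close to B-MF, and Ccl7 7.28 and 6.98, above both B-MF libraries. The Arg1 criterion was applied to Mo-MF only, so these differences are given with no p.

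Of 19 measured early response genes, 13 were lower in Arg1-high Mo-MF than in B-MF and none higher, beside 5.34% of all genes lower and 5.62% higher. Egr1, an immediate early transcription factor, averaged 0.493 and 0.289 in Arg1-high Mo-MF, 0.646 and 0.517 in Arg1-low Mo-MF and 7.24 and 6.84 in B-MF (log2 difference from B-MF -3.89 ± 0.20, adjusted p = 0.000224 by limma). Klf2, a transcription factor gene, averaged 0.466 and 0.539 in Arg1-high Mo-MF and lay below B-MF by a log2 difference of -2.16 ± 0.12 (adjusted p = 0.00029 by limma). Against the same shares of all genes, of 21 interferon response genes 11 were higher than in B-MF and none lower, of 23 lipid-associated genes 12 were higher and none lower, and of 27 glycolysis and hypoxia genes 13 were higher and none lower. In the cytokine and chemokine list 11 of 20 were lower and 2 higher. Such counts were not made for Arg1-low Mo-MF, so they do not set the Arg1-high cells apart within the culture. Within Mo-MF, 12 of 22 interferon response genes were lower in Arg1-high than in Arg1-low cells and none higher.

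**Figure D4:**
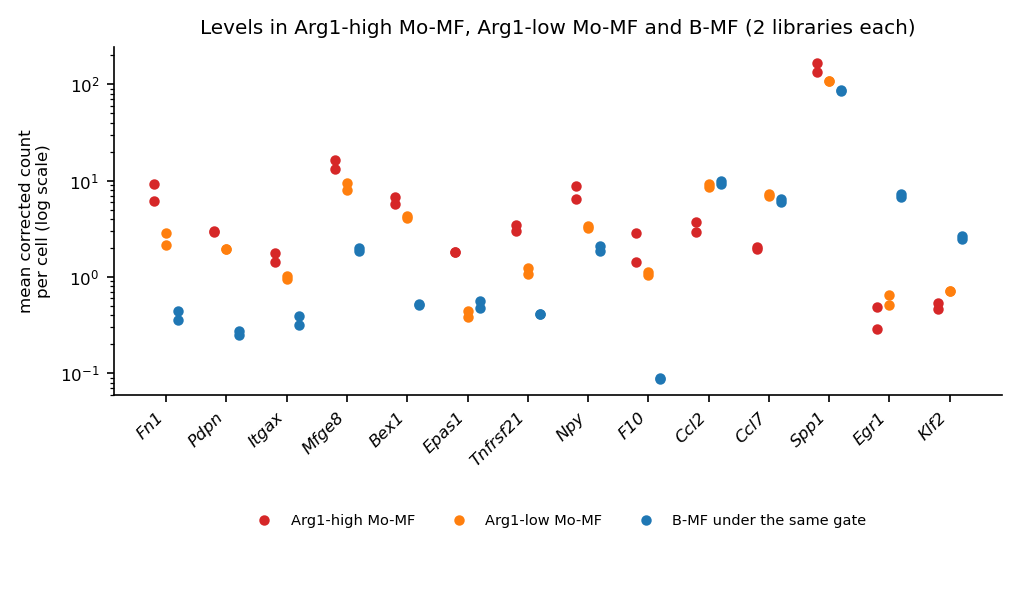
Mean corrected count per cell (log scale) of 14 genes in Arg1-high Mo-MF, Arg1-low Mo-MF and B-MF under the same gate, 1 point per library and 2 libraries each. For Epas1 the Arg1-low Mo-MF (0.385 and 0.440) lie below B-MF (0.557 and 0.477), whereas for Fn1, Pdpn, Bex1 and F10 they lie between the other two.

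Only 8 B-MF cells were Arg1-high under the gate, which allows no test. The 4 cells of each library averaged 3.0 Epas1 counts a cell, where the other B-MF cells averaged 0.553 and 0.474. Per cell, the Arg1-high B-MF averaged 16.75 and 2.0 Fn1 counts, beside 0.334 and 0.437 in the others. Their Ccl2 averaged 7.25 and 2.25 counts a cell, beside 10.0 and 9.16.

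TAM gave 4 libraries that the choice of the Mo-MF cells had not used. The 203 Arg1-high TAM were compared with the 1859 Arg1-low TAM of the same gate within each library, with Arg1 left out as the gene that divided them. At an adjusted p under 0.05 (limma with the library as a block), 440 of 6517 genes (6.75%) were higher and 1076 (16.5%) lower. The median log2 difference over all genes was -0.17, and Arg1-high TAM also had fewer detected genes (medians of 2217 to 2402 against 2510 to 2576 in Arg1-low TAM). With Arg1-low cells drawn to the same distribution of detected genes, 300 were higher and 366 lower and the median was -0.084. Leaving out TAM 2 gave 253 higher and 536 lower genes, TAM 3 333 and 683, TAM 4 255 and 431, and TAM 5 326 and 625. Where gated TAM hold several kinds of myeloid cell, the mix of kinds cannot be told apart from levels within a kind.

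Of the 37 genes higher in Arg1-high Mo-MF, 22 were measured in TAM, and 13 of them (59.1%, beside 6.75% of all genes) were higher and 1 (4.55%) lower in Arg1-high TAM. Of the 22, 4 averaged under 0.1 in Arg1-low TAM, and among the other 18 the count higher was 10. Of the 36 lower genes, 28 were measured, and 12 (42.9%, beside 16.5%) were lower and 4 (14.3%, beside 6.75%) higher. The 1 gene that was higher in Mo-MF and lower in TAM was Lpl, and the 4 that went the other way were Ccl2, Ccl7, Ccl3 and Marcksl1, the last named after its value was seen.

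Pdpn and Fn1 were higher in the Arg1-high cells of every TAM library. Pdpn averaged 2.05, 2.74, 2.56 and 0.793 corrected counts in Arg1-high cells of TAM 2 to TAM 5 against 0.250, 0.101, 0.182 and 0.169 in Arg1-low cells (log2 difference 2.85 ± 0.28, adjusted p = 0.000353 by limma). Fn1 averaged 12.5, 11.3, 6.33 and 8.21 against 2.97, 3.23, 2.32 and 2.87 (1.68 ± 0.16, adjusted p = 0.000329 by limma). In both genes the 2 sets of libraries did not overlap. Itgax did not pass the test (log2 difference -0.44, adjusted p = 0.158 by limma), and Mfge8 and Bex1 were not among the genes tested in TAM.

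Most listed genes of glycolysis and the hypoxia response were higher in TAM as well. Ankrd37 averaged 0.938, 1.30, 1.05 and 1.24 in Arg1-high against 0.449, 0.743, 0.348 and 0.549 in Arg1-low TAM (log2 difference 1.02 ± 0.16, adjusted p = 0.00256 by limma). Slc2a1 differed by 1.08 ± 0.15 and Hilpda by 1.11 ± 0.16 on the log2 scale (adjusted p = 0.00163 and 0.00154 by limma). Of 30 measured genes of glycolysis and the hypoxia response 26 were higher and none lower, beside 6.75% and 16.5% of all genes, with a median log2 difference of 0.84 beside -0.17. With Arg1-low cells matched on detected genes 21 of 30 were higher, beside 4.70% of all genes. Epas1, by contrast, was near 0 in TAM and not tested, at 0.0536, 0, 0 and 0.0690 in Arg1-high and 0.00967, 0.0253, 0.0348 and 0.0143 in Arg1-low cells. Tnfrsf21 did not pass the test (log2 difference 0.12, adjusted p = 0.65 by limma). Of 22 genes of matrix proteases, coagulation and fibrinolysis 11 were higher and none lower, again beside 6.75% and 16.5% of all genes. Mmp12 was among the higher ones (2.05 ± 0.28, adjusted p = 0.0015 by limma, or 0.0643 with no filter on low values), whereas Mmp9 did not pass the test (-0.55, adjusted p = 0.279 by limma). Of 13 MHC class II genes 11 were lower and none higher, and of 23 interferon response genes 13 were lower and none higher, beside 16.5% of all genes lower. With Arg1-low cells matched on detected genes these were 8 of 13 and 6 of 24, beside 5.74% of all genes. Some markers of other cells were also lower in Arg1-high TAM. Of 3 measured dendritic cell markers 2 were lower (2 of 2 after matching), and the summed level of that list was 0.0435 to 0.385 against 0.869 to 1.59. Of 14 monocyte markers 8 were lower and 2 higher, also after matching, and their summed level was 33.2 to 40.2 against 36.4 to 44.9. The median mitochondrial share was lower in each library, at 1.63% to 2.65% against 2.65% to 3.22%. The part of these in the MHC class II and interferon counts was not tested. Tmem176b was lower as in Mo-MF (-2.64 ± 0.26, adjusted p = 0.000329 by limma). Of 16 measured genes of arginine and polyamine metabolism other than Arg1, 2 were higher and 4 lower, beside 6.75% and 16.5% of all genes. After matching on detected genes these were 2 and 1, beside 4.70% and 5.74%. Nos2, at 0 in Arg1-high Mo-MF, was among the higher ones in TAM (log2 difference 2.12).

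Ccl2, Ccl7 and Ccl3 differed the other way from Mo-MF. Ccl2 averaged 3.05, 3.13, 4.69 and 3.69 corrected counts in Arg1-high against 0.942, 1.08, 0.845 and 0.698 in Arg1-low TAM (log2 difference 1.91 ± 0.19, adjusted p = 0.000345 by limma). Ccl7 averaged 2.48, 1.35, 1.59 and 1.07 against 0.579, 0.165, 0.246 and 0.214 (2.14 ± 0.16, adjusted p = 0.000125 by limma). Of 24 cytokines and chemokines 15 were higher and 1 lower in Arg1-high TAM, beside 6.75% and 16.5% of all genes, with a median log2 difference of 1.19 beside -0.17. Pf4 was higher in Arg1-high TAM, as in Mo-MF (log2 difference 3.60 ± 0.36, adjusted p = 0.000376 by limma). The summed level of the list was 285 to 405 in Arg1-high and 132 to 178 in Arg1-low TAM.

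**Figure D5:**
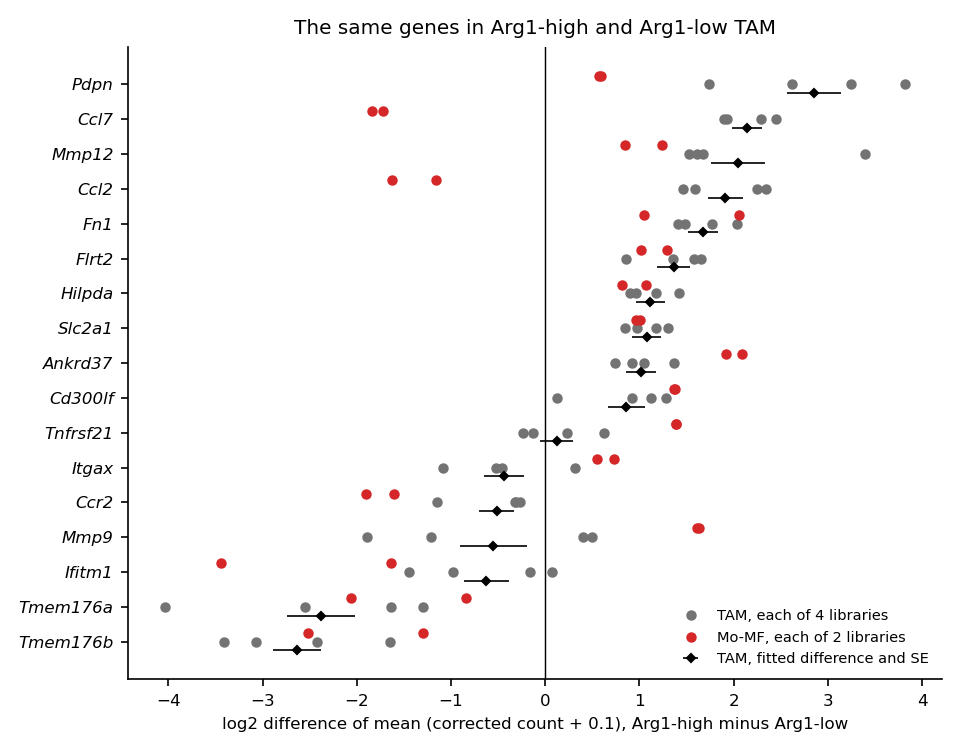
Log2 difference of mean corrected count plus 0.1 between Arg1-high and Arg1-low cells for named genes measured in TAM, sorted by the fitted TAM difference, with 4 TAM libraries (grey), the fitted value and SE (black) and the 2 Mo-MF libraries (red). Pdpn, Fn1, Ankrd37, Slc2a1 and Hilpda lie right of 0 in each library, and Ccl2 and Ccl7 lie right of 0 in TAM and left of 0 in Mo-MF.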

How the data were processed

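Single-cell libraries of 2 Mo-MF, 2 B-MF and 4 TAM samples were analysed. Chromatin accessibility peaks of the series were not used here. Per the study's methods, the authors processed reads with Cell Ranger, kept cells with at least 1000 detected genes and used SCTransform. The deposited values are natural log values of 1 + corrected count. These values are whole corrected counts within 1e-06 on the deposited natural log scale, adjusted for depth by a model, so that depth differences between cells were largely removed before deposit. The authors' clusters were not among the files used here.

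Corrected counts were averaged per gene over the cells of each gate and library. Within Mo-MF, genes were kept with a mean of at least 0.1 in Arg1-high or Arg1-low cells of both libraries. For the B-MF and TAM fits, the mean over all library averages of both groups had to reach 0.1. Log2(mean + 0.1) was fitted with limma 3.58.1 in R 4.3.3, with Benjamini-Hochberg adjustment over all genes tested, no block for B-MF and the library as a block for TAM. The 4 TAM libraries were told apart by the prefix of their cell names, numbered 2 to 5, which could not be matched to single labelled samples. TAM libraries needed at least 20 cells in each gate. The fits were tested on simulated data with 200 changed genes. The B-MF fit (8555 genes) recovered 64% of changes of 1 and 95% of changes of 2 on the log2 scale, with 3.05% of calls false. The TAM fit (6517 genes) recovered 84% and 99%, with 7.58% of calls false. The simulated noise of a gene had the same spread in every library, as the fit assumes. In the data, Arg1-high Mo-MF averages rest on 73 and 76 cells and B-MF averages on 2772 and 3157. The recovered and false shares therefore need not hold for the real calls. Same-numbered libraries of Mo-MF and B-MF came with no statement of pairing. The named genes were the 15 highest and 10 lowest by mean difference with 1 sign in both Mo-MF libraries, the fixed markers, up to 4 members per gene list, the genes used by the gate and the 10 most correlated with Arg1. The members and lists were chosen with earlier results of these data known, and the 1.5-fold rule after the data were seen. Alternatives changed the Arg1 threshold, scaling, pseudocount, low-value filter, mitochondrial content, detected genes, Csf3r criterion and basophil-positive cells.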

Additional observations from a re-analysis of the deposited data

Results flagged for a closer look

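Ccl7 and Ccl2 were lower in Arg1-high cells of both Mo-MF libraries and higher in those of all 4 TAM libraries, where the log2 differences were 2.14 and 1.91. The difference between Mo-MF and TAM was not tested, since the 2 tables were normalized separately. Over the alternatives, Ccl7 in TAM ranged from 0.99 to 2.49 and its adjusted p (limma) from 3.89e-05 to 0.0166.

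Among 19 values checked over 4 TAM libraries, 2 had a library far from the others, and chance gives about 1 in 20. Mmp12 differed by 3.39 on the log2 scale in TAM 5, above the other 3 libraries, and Ccr2 differed by -1.15 in TAM 4, below the other 3. The part of these libraries in the fitted values was not tested beyond leaving each out in turn.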

How the results depend on the processing

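In Mo-MF, the counts of genes at least 1.5-fold higher and lower were 67 and 48 with Arg1 at 20 or more, 15 and 8 with a pseudocount of 1, 94 and 86 with 0.01, and 26 and 18 with a mean of at least 0.5. Leaving out 1 Mo-MF library left a single library and gave 139 to 163 higher and 117 to 217 lower genes. No direction of the 20 genes followed was reversed in Mo-MF under any of these alternatives.

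Against B-MF, the counts higher and lower were 654 and 781 with Arg1 at 5 or more, 302 and 210 at 20 or more, 521 and 792 with cells scaled to 10000 counts, 876 and 1221 with a pseudocount of 1, 339 and 249 with 0.01, 220 and 215 with no filter on low values, 1162 and 1226 without the Csf3r criterion, and 1048 and 841 in cells with Csf3r counts only. The last 2 were chosen after seeing the data. Leaving out 1 library gave 127 to 1877 higher and 112 to 2118 lower genes. With the replicate number as a block, 525 were higher and 487 lower. Deviations of same-numbered Mo-MF and B-MF libraries correlated at r = 0.061 over 8555 genes, which does not pair them.

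In TAM, the counts were 233 and 374 with Arg1 at 20 or more, which dropped TAM 3 and TAM 5 for too few cells, 249 and 347 with a pseudocount of 0.01, 248 and 433 with no filter, 678 lower with a mean of at least 0.5, and 366 lower with Arg1-low cells matched on detected genes. Leaving out 1 library gave 253 to 333 higher and 431 to 683 lower genes. Without the library block (no replicate block) 455 were higher and 1077 lower.

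The mean share of Arg1-high cells in Mo-MF, 5.41%, became 9.14% at 5 or more counts, 3.39% at 20 or more and 5.69% without cells over 10% mitochondrial. In TAM the mean share of 9.17% became 5.86% at 20 or more. A fit of Arg1-high against Arg1-low B-MF was not run, because the gate left 4 cells per library. The causes of these shifts were not tested. With 149 cells, genes averaging few counts rest on few molecules.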
